A study of Mus musculus with 2 samples.

Results

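The cells described are 2596 mast cells with transcripts of the Mas-related receptors Mrgprb1 and Mrgprb2 and more UMIs of Nrgn and Cacnb4 than of Slc6a13 and Cpb1, called Cacnb4/Nrgn cells here. A UMI (unique molecular identifier) marks 1 captured RNA molecule. The cells were chosen by their own UMIs, so the levels of the genes used are a description and not a finding. From 34813 deposited barcodes, 33964 had at least 500 genes, at least 1000 gene UMIs and at most 10% mitochondrial UMIs. Mast cells, 24344 in number, had at least 1.5% of gene UMIs from Cpa3 and Cma1, under 0.1% from C1qa, C1qb and C1qc and under 0.2% from Col1a1, Col1a2, Col3a1 and Dcn. Non-cycling mast cells, 17296 in number, had UMIs of at most 1 of Mki67, Top2a, Birc5, Cdk1, Ube2c and Cenpf. Of these, 5238 had at least 3 UMIs of Mrgprb1 and Mrgprb2 and more of them than of Slc6a4 and Ctse. The Cacnb4/Nrgn cells were 15.01% of non-cycling mast cells (95% exact interval 14.5 to 15.6). They were compared with the 14700 other non-cycling mast cells, with 1312 Mrgprb cells that had more Slc6a13 and Cpb1 UMIs (Slc6a13 cells) and with 2144 cells that had at least 3 UMIs of Slc6a4 and Ctse and more of them than of Mrgprb1 and Mrgprb2 (Slc6a4 and Ctse cells).

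The study sought progenitors in the wall of the postnatal mouse aorta, and its labels describe macrophage colonies (CFU-M) grown from aortic cells for 14 days in semi-solid methylcellulose. Per the labels, the aortas came from 2 male C57BL/6J mice aged 12 weeks, and viable cells were sorted by DAPI exclusion into 1 droplet library. The labels do not tell the cells of the mice apart and give no genotype or treatment that differs between cells. All groups compared here share that 1 library, so cells are not replicates, no test between groups is given, and every interval covers counting error only. Xist, the RNA of the inactive X chromosome, was detected in 95.6% of Cacnb4/Nrgn cells and 63.7% of other non-cycling mast cells, which goes against the label of male mice, and the results that rest on it are given with and without such cells below.

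Mrgpr receptors are G protein-coupled receptors found on sensory neurons and, for Mrgprb1 and Mrgprb2, on connective tissue-type mast cells, where Mrgprb2 starts degranulation on contact with cationic peptides and drugs independently of IgE. Degranulation depends on a rise of calcium inside the cell. Both genes that set these cells apart code for proteins of calcium biology in neurons: Nrgn codes for neurogranin, which binds calmodulin when calcium is low, and Cacnb4 for a beta subunit of voltage-gated calcium channels. Adamtsl3 codes for a secreted matrix glycoprotein related to the ADAMTS proteases but without their protease domain.

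Mrgprb1 and Mrgprb2, which the rule used, and Mrgprx1, the 1 Mrgpr gene outside the rule with 20 CPM or more (CPM are UMIs of the gene per 1000000 gene UMIs), lie on the minus strand of chromosome 7. The 250 bases before their annotated starts are printed because these are the receptor genes that the results name most. Sequences are those of RefSeq for GRCm38.p6, read 5′ to 3′ on the gene's strand, for Mrgprb1 (chr7:48456343-48456592), Mrgprb2 (chr7:48558087-48558336) and Mrgprx1 (chr7:48027598-48027847). Capitals mark matches, on either strand, of GATAA, the core bound by GATA factors, of TGTGGT, bound by Runx factors, and of TGACTCA, bound by AP-1. A search for CACATG, an E-box, found no match in the 3 windows, and no matches overlapped.
Mrgprb1: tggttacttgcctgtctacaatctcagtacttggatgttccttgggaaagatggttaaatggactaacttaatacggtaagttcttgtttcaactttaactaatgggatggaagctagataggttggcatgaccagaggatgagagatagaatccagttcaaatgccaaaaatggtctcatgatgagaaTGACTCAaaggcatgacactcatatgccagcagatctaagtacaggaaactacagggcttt
Mrgprb2: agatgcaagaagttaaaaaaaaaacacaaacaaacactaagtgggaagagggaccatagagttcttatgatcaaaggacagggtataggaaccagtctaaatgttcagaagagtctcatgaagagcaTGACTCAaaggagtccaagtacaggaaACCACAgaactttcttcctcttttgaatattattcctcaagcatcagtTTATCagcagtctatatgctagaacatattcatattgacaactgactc
Mrgprx1: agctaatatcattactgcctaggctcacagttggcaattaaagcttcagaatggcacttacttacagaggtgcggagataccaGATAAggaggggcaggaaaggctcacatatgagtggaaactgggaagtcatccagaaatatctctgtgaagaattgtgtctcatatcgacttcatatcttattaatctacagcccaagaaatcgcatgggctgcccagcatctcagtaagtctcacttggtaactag
Mrgprb1 and Mrgprb2 each held 1 match of TGACTCA, which 4.46% of all 32851 RefSeq windows of this length held. Mrgprb2 and Mrgprx1 each held 1 match of GATAA, found in 22.6% of windows, and Mrgprb2 held 1 of TGTGGT, found in 14.0%. Such a match is a description of the letters and does not show binding. Of 22 genes looked up, 17 had a window in the table.

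The name Nrgn fits few of the cells by detection. Nrgn (chr9:37544492-37552904, minus strand) had a UMI in 443 of the 2596 cells (17.1%), while Cacnb4 (chr2:52428320-52676831, minus strand) had one in 2536 (97.7%). Cells with Cacnb4 and no Nrgn UMI were 2153 (82.9%), cells with both 383 (14.8%) and cells with Nrgn alone 60 (2.31%). The rule's second pair therefore selected mostly on Cacnb4, which A430018G15Rik overlaps on the other strand. Whether strand was used in counting is not given in the sources used here. With every cell thinned to 5500 UMIs, Nrgn was detected in 11.4% of the cells (10.2 to 12.7), in 1.34% of other non-cycling mast cells and in 2.43% of Slc6a13 cells. Macrophage barcodes, defined by at least 0.3% of C1q UMIs, and fibroblast barcodes, defined by at least 1% of collagen and Dcn UMIs, served for comparison. Both can hold free RNA and doublets with mast cells, and the part of each was not tested. Cma1 had 5354 CPM in macrophage barcodes and 2812.5 CPM in fibroblast barcodes, against 25280 CPM in Cacnb4/Nrgn cells. At 5500 UMIs, 0.652% of macrophage and 0.474% of fibroblast barcodes had an Nrgn UMI. Without thinning these shares were 1.16% and 2.77%, at median depths of 8209 and 29646 UMIs against 11116 in the Cacnb4/Nrgn cells. Nrgn in the Cacnb4/Nrgn cells lay above these shares, but the rule counted Nrgn UMIs when it chose them, so this is description. The same holds for the low share in Slc6a13 cells, chosen for fewer Nrgn and Cacnb4 UMIs. In the other non-cycling mast cells (2.45% without thinning, median depth 9653) Nrgn lay above both shares after thinning and between them without it.

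The rule cuts a continuous range. Among Mrgprb cells, 1330 had equal counts of both gene pairs, and 918 of those had no UMI of any of the 4 genes. Of the Cacnb4/Nrgn cells, 704 (27.1%) lay 1 UMI inside the cut and 266 (10.2%) had exactly 3 Mrgprb UMIs. At least 1 UMI of Slc6a13 or Cpb1 was present in 1328 of them (51.2%). Their medians were 8 Mrgprb UMIs, 4 Nrgn and Cacnb4 UMIs and 1 Slc6a13 and Cpb1 UMI. Just inside the cut, Adamtsl3 had 37.1 CPM and just outside it, at equal counts, 27.4 CPM. With the rule applied to thinned cells, 1571 cells qualified, 8.50% of 18479 non-cycling mast cells (8.10 to 8.91), and 1350 of them (85.9%) were among the 2596. Thinning also removes UMIs of the cycling genes, so cells called cycling on all UMIs can pass as non-cycling. By all UMIs, 15818 non-cycling mast cells were deep enough to thin, so this share has another base than the share on all UMIs.

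**Figure D1:**
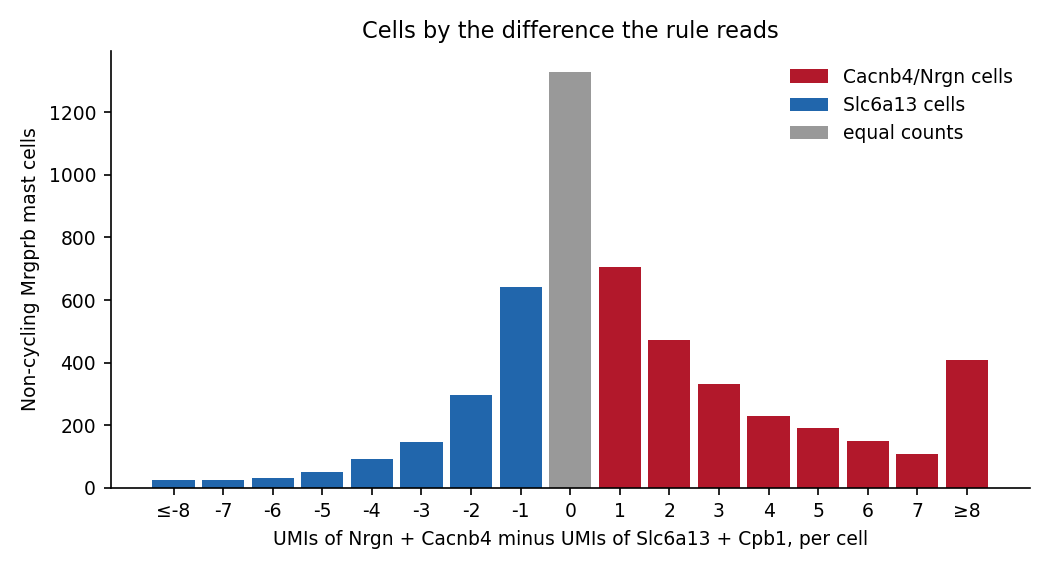
Number of non-cycling Mrgprb mast cells (y axis) by the difference, in UMIs per cell, between Nrgn plus Cacnb4 and Slc6a13 plus Cpb1 (x axis; the end bars pool 8 UMIs or more in either direction). The counts fall away on both sides of the 1330 cells at 0 with no gap at the cut, and the 407 cells at 8 or more form a longer tail on the Cacnb4/Nrgn side than the 26 cells on the other.

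The cells were mast cells by markers beyond those of the rule. Fcer1a, the IgE-binding chain of the high-affinity IgE receptor, had 4320 CPM in them and 3973 CPM in other non-cycling mast cells. Kit, the receptor of stem cell factor, had 1569 and 1444 CPM, and Hdc, which makes histamine, 1381 and 1064 CPM. Of 8 mast cell markers outside the rule at 20 CPM or more, none reached 2-fold in either direction. The Cacnb4/Nrgn cells had a median of 11116 UMIs and 3297.5 genes, against 9653 UMIs and 2930 genes in other non-cycling mast cells, and 1.99% against 2.12% mitochondrial UMIs. Called doublets were kept, and they made up 188 of the Cacnb4/Nrgn cells (7.24%) and 5.76% of the others. Cdh5, Cldn5 and Tie1, which define endothelial cells, had 0 UMIs in the Cacnb4/Nrgn cells, which allows a level of up to 0.092 CPM each (3 UMIs). The endothelial list of 9 genes summed to 140 CPM, of which Pecam1 (105 CPM) and Vwf (33.0 CPM) made up nearly all, and to 110 CPM in the others. Macrophage markers outside the rule summed to 166 CPM against 141 and 174 in Slc6a13 cells. Of them Csf1r had 3.19 CPM, and Mrc1 had 25.5 CPM against 15.9 in the others and 15.9 in Slc6a13 cells (both ratios 1.60), with 3384 CPM in macrophage barcodes. Fibroblast markers outside the rule summed to 71.9 against 80.7 CPM. The 8 neutrophil genes summed to 6.81 CPM, the 8 T and B cell genes to 0.613, the 6 smooth muscle genes to 1.07 and the 6 adipogenic genes to 19.3 CPM. Their part in the ratios below was not tested.

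The Mrgprb receptors had like levels in all groups chosen for them. Mrgprb1 (chr7:48444113-48456342, minus strand) had 640 CPM (631 to 649) in Cacnb4/Nrgn cells, 614 CPM in Slc6a13 cells, 668 CPM in Mrgprb cells with equal counts, 23.4 CPM in Slc6a4 and Ctse cells and 19.5 CPM in the remaining 9914 non-cycling mast cells. The rule itself set the gap between the groups chosen for Mrgprb UMIs and the other groups. Macrophage barcodes had 46.7 CPM and fibroblast barcodes 20.9 CPM. The rule's limits on Mrgprb UMIs did not apply to these barcodes, so the low levels cannot be read against them. Mrgprb2 (chr7:48550965-48558086, minus strand), for which the rule set the gap too, had 200 CPM in Cacnb4/Nrgn cells and 204 in Slc6a13 cells. It had 219 CPM at equal counts, 28.7 in Slc6a4 and Ctse cells and 24.6 in the remaining cells. Macrophage and fibroblast barcodes had 20.7 and 9.59 CPM of it. Between Cacnb4/Nrgn and Slc6a13 cells the 2 receptors differed by ratios of 1.04 (1.02 to 1.07) and 0.980 (0.938 to 1.02). Mrgprx1, a relative known from itch-sensing neurons and not used by the rule, had 22.5 CPM in Cacnb4/Nrgn cells, 19.7 in Slc6a13 cells, 10.3 at equal counts, 3.20 in Slc6a4 and Ctse cells and 2.70 in the remaining cells, against 0.192 CPM in macrophage barcodes. It was thus shared by both Mrgprb groups, with a ratio between them of 1.14 (0.998 to 1.32). After thinning it was detected in 6.79% of Cacnb4/Nrgn cells, 6.12% of Slc6a13 cells and 0.0592% of macrophage barcodes. Mrgprb3, Mrgprb8, Mrgprf and Mrgprh had 0 UMIs in the Cacnb4/Nrgn cells, with the same upper limit. The Mrgpr genes are near-identical relatives in part, so the division of reads among them is uncertain.

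The second gene pair is given as description. Nrgn had 50.5 CPM (UMIs summed over the group) in Cacnb4/Nrgn cells, 6.04 in Slc6a13 cells, 4.80 at equal counts, 2.63 in Slc6a4 and Ctse cells and 4.31 in the remaining cells. Cacnb4 had 379 CPM in Cacnb4/Nrgn cells, 65.3 in Slc6a13 cells, 53.9 at equal counts, 84.8 in Slc6a4 and Ctse cells and 105 in the remaining cells, with 31.7 CPM in macrophage barcodes. In mast cells with few Mrgprb UMIs, Cacnb4 was therefore also higher than in macrophage barcodes. Slc6a13, which codes for a transporter of GABA and taurine, had 57.7 CPM in Cacnb4/Nrgn cells and 194 in Slc6a13 cells. Cpb1, a carboxypeptidase, had 23.6 and 74.1 CPM.

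To read these genes on UMIs that the rule had not used, the UMIs of each cell were split at random into 2 sets, the rule was applied to the first and levels were taken from the second. The 1731 cells chosen this way had 56.5 CPM of Nrgn (52.3 to 60.9) against 14.1 in the Slc6a13 cells chosen the same way, a ratio of 4.01 (3.13 to 5.21), and 6.19 CPM in other non-cycling mast cells, a ratio of 9.13 (8.18 to 10.2). Cacnb4 had 365 CPM against 122 and 109, ratios of 2.997 and 3.34. Both genes thus stayed higher in UMIs not used for the choice. Adamtsl3 had 74.3 CPM against 36.6 and 26.0, ratios of 2.03 (1.73 to 2.40) and 2.86 (2.64 to 3.08). Slc6a13 was not absent from these cells: at 81.2 CPM it had 1.66 times (1.55 to 1.78) the level of other non-cycling mast cells and 0.539 times (0.489 to 0.594) that of Slc6a13 cells. Cpb1 had 0.861 times the level of the others and 0.523 times that of Slc6a13 cells. Both sets come from the same cells and the same library, so they share depth and any doublets. The cycling genes were also read on the first set alone, so these groups can include cells called cycling on all UMIs. The other non-cycling mast cells numbered 17391 here and 14700 on all UMIs.

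Taken 1 gene at a time over Mrgprb cells chosen on thinned counts, the 2 pairs were not mutually exclusive. Cells with an Nrgn UMI, 264 in number, had 135 CPM of Slc6a13 against 96.5 CPM in the 3241 without, a ratio of 1.398 (1.20 to 1.62). The 1964 cells with a Cacnb4 UMI had 1.25 times (1.14 to 1.38) the Slc6a13 level of the 1541 without. Adamtsl3 stood at 1.43 times (1.15 to 1.76) in cells with Nrgn and 2.10 times (1.82 to 2.43) in cells with Cacnb4. It was also higher, at 1.17 times (1.02 to 1.34), in the 1168 cells with a Slc6a13 UMI than in the 2337 without. Cacnb4 itself was 1.404 times higher (1.27 to 1.54) in cells with Nrgn. In the 660 cells with an Adamtsl3 UMI, Slc6a13 stood at 0.970 times (0.861 to 1.09) and Cpb1 at 1.00 times (0.823 to 1.21) the level of the cells without, intervals that include 1.

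Adamtsl3 (chr7:82335694-82614450, plus strand) is the one given marker that the rule did not use. It had 66.4 CPM (63.6 to 69.2) in Cacnb4/Nrgn cells, 34.1 in Slc6a13 cells, 27.4 at equal counts, 22.1 in Slc6a4 and Ctse cells and 25.4 in the remaining cells, with 7.62 and 8.74 CPM in macrophage and fibroblast barcodes. The other 4 groups of mast cells lay between 22.1 and 34.1 CPM. The level was not even within the Cacnb4/Nrgn cells. The 704 cells at a difference of 1 UMI had 37.1 CPM, and those at 6 or more had 99.6 CPM. The ratio was 2.58 (2.45 to 2.71) over other non-cycling mast cells and 1.95 (1.77 to 2.15) over Slc6a13 cells. After thinning, 23.3% of Cacnb4/Nrgn cells (21.7 to 25.1), 15.3% of Slc6a13 cells (13.3 to 17.4) and 11.2% of the others had a UMI, against 2.31% of macrophage and 4.37% of fibroblast barcodes. Without thinning the shares were 36.4%, 21.3% and 17.5%, against 4.50% and 14.0%. Within the Cacnb4/Nrgn cells it had 95.3 CPM in cells with both Nrgn and Cacnb4, 60.4 in cells with Cacnb4 only and 59.9 in the 60 cells with Nrgn only.

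Along the difference of gene pairs in Mrgprb cells chosen on thinned counts, Adamtsl3 increased in steps. It had 16.9 CPM (8.74 to 29.5) at a difference of -3 or less, 44.0 at -2 to -1, 30.2 at 0, 47.6 at 1, 69.2 at 2, 83.1 at 3 to 4 and 108 CPM (89.6 to 129) at 5 or more. The level on the Slc6a13 side had no order, and each bin from 1 upwards was above the previous, though from 2 upwards the intervals of neighbouring bins overlapped. Galnt18, an enzyme of the family that starts O-glycosylation, went from 14.2 CPM at 0 to 54.9 CPM at 5 or more. Slc8a1, the sodium-calcium exchanger, went from 22.5 CPM at 0 to 37.3 at 1 and stood between 45.0 and 48.8 CPM above that. Ctsg (cathepsin G) was highest at 0, with 68.3 CPM, and lower on both sides, with 40.9 CPM (27.4 to 58.7) at -3 or less and 21.6 CPM (13.8 to 32.1) at 5 or more. Mrgprb1 showed no such course: it had 1042 CPM at -3 or less, 850 at 0 and 1059 at 5 or more.

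**Figure D2:**
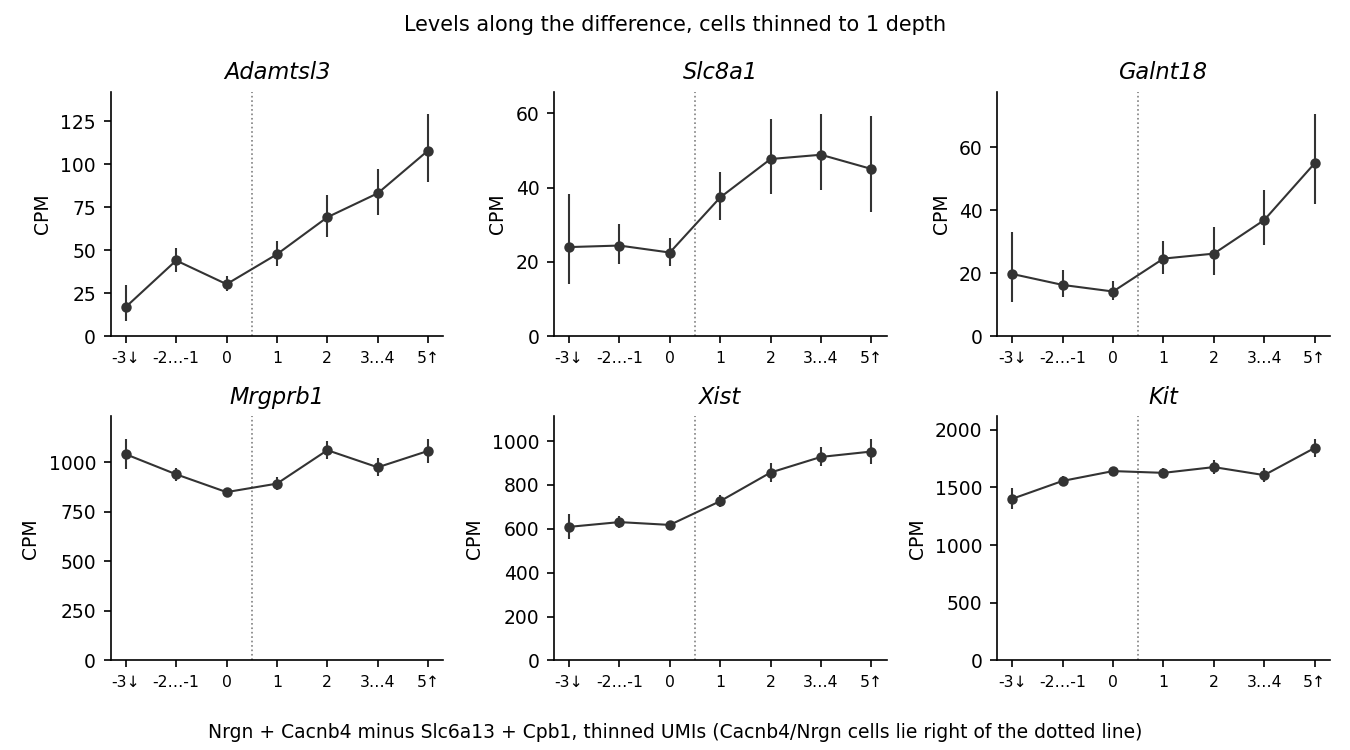
Levels in CPM (y axes from 0) of 6 genes in Mrgprb cells chosen by the rule on counts thinned to 5500 UMIs. The x axis is the difference in thinned UMIs between Nrgn plus Cacnb4 and Slc6a13 plus Cpb1. A down arrow marks "or less", an up arrow "or more", and the 95% Poisson intervals cover counting error only. Adamtsl3 reaches 108 CPM and Galnt18 54.9 CPM in the last bin, and Xist goes from 618 CPM at 0 to 952 CPM. Kit is lowest in the first bin (1401 CPM) and highest in the last (1842 CPM), without order in the bins from 0 to 3 to 4. Mrgprb1 varies without such a course.

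Against all other non-cycling mast cells, 53 of 5760 genes outside the rule with 20 CPM or more in the higher group were at least 2-fold higher in Cacnb4/Nrgn cells (0.92%) and 6 were at least 2-fold lower (0.104%). At 1.5-fold or more, 251 were higher (4.36%) and 37 lower (0.642%), and the median ratio over the tested genes was 1.05. Since the rule chose the cells in this same contrast, the ratios are descriptions. After Mrgprx1 (ratio 4.61), the named genes with the largest ratios were Agbl1, a carboxypeptidase that acts on tubulin, and Tox, a chromatin-binding factor of lymphocyte development. Agbl1 had 21.4 CPM in Cacnb4/Nrgn cells and 4.80 in the others, a ratio of 4.45 (4.01 to 4.93), and Tox 20.98 against 5.53 CPM, a ratio of 3.79 (3.43 to 4.19). Both were scarce, with Agbl1 detected in 8.47% of Cacnb4/Nrgn cells and 1.02% of macrophage barcodes. Atp6v0d2, a subunit of the proton pump that acidifies vesicles, had 46.6 against 12.4 CPM (3.76, 3.52 to 4.02). Galnt18 had 30.3 against 8.58 CPM (3.53), and the centrosomal gene Cep126 24.96 against 6.68 CPM (3.74).

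The other named genes follow with their levels. The adaptor Pag1, which brings the kinase Csk to the membrane, had 91.6 CPM in Cacnb4/Nrgn cells against 31.8 in the others (2.89, 2.76 to 3.02). Pilra, an inhibitory immunoglobulin-like receptor, had 53.7 against 18.6 CPM (2.89), and Plekhg1, a guanine nucleotide exchange factor, 89.4 against 33.5 CPM (2.67). Slc8a1 had 41.1 against 15.9 CPM (2.58, 2.42 to 2.76), and macrophage barcodes, in which Mrc1 was also high, had 385 CPM of it. Pgr, the progesterone receptor, had 31.6 against 10.7 CPM (2.95), Mboat2, an acyltransferase of phospholipids, 32.7 against 10.2 (3.21), and Itih5, a hyaluronan-binding inhibitor chain, 21.7 against 6.28 (3.46). Slc6a12, a betaine and GABA transporter whose gene lies next to Slc6a13 on chromosome 6, had 20.7 against 7.74 CPM (2.67). The level in the others lay below macrophage barcodes for Pag1 (48.7 CPM there) and Pilra (26.0). It lay below fibroblast barcodes for Slc8a1 (29.8), Atp6v0d2 (24.0), Galnt18 (13.2), Tox (9.74) and Itih5 (9.34). For Mrgprx1, Agbl1, Cep126, Plekhg1, Pgr, Mboat2 and Slc6a12 it lay above both. The part of free RNA and of doublets in these levels was not tested.

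Cathepsin G was the gene with the lowest ratio. Ctsg had 57.2 CPM in Cacnb4/Nrgn cells, 96.8 in Slc6a13 cells, 97.2 at equal counts, 262 in Slc6a4 and Ctse cells and 316 in the remaining cells, with 68.2 CPM in macrophage barcodes. Its ratio over the others was 0.212 (0.202 to 0.222), and its level in Cacnb4/Nrgn cells lay below that of macrophage barcodes. Also lower were Atp1b1, a subunit of the sodium pump (8.43 against 22.4 CPM, 0.376), the actin-binding Avil (13.2 against 33.2, 0.398), the tubulin-binding Stmn2 (29.9 against 68.3, 0.439), the calcium-binding S100a4 (29.0 against 65.4, 0.444) and Nt5dc2 (14.97 against 31.3, 0.479). Macrophage and fibroblast barcodes had 10.1 and 6.98 CPM of Atp1b1, 11.2 and 20.8 of Avil and 10.6 and 8.86 of Stmn2. They had 273 and 77.2 CPM of S100a4 and 15.8 and 32.6 of Nt5dc2.

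**Figure D3:**
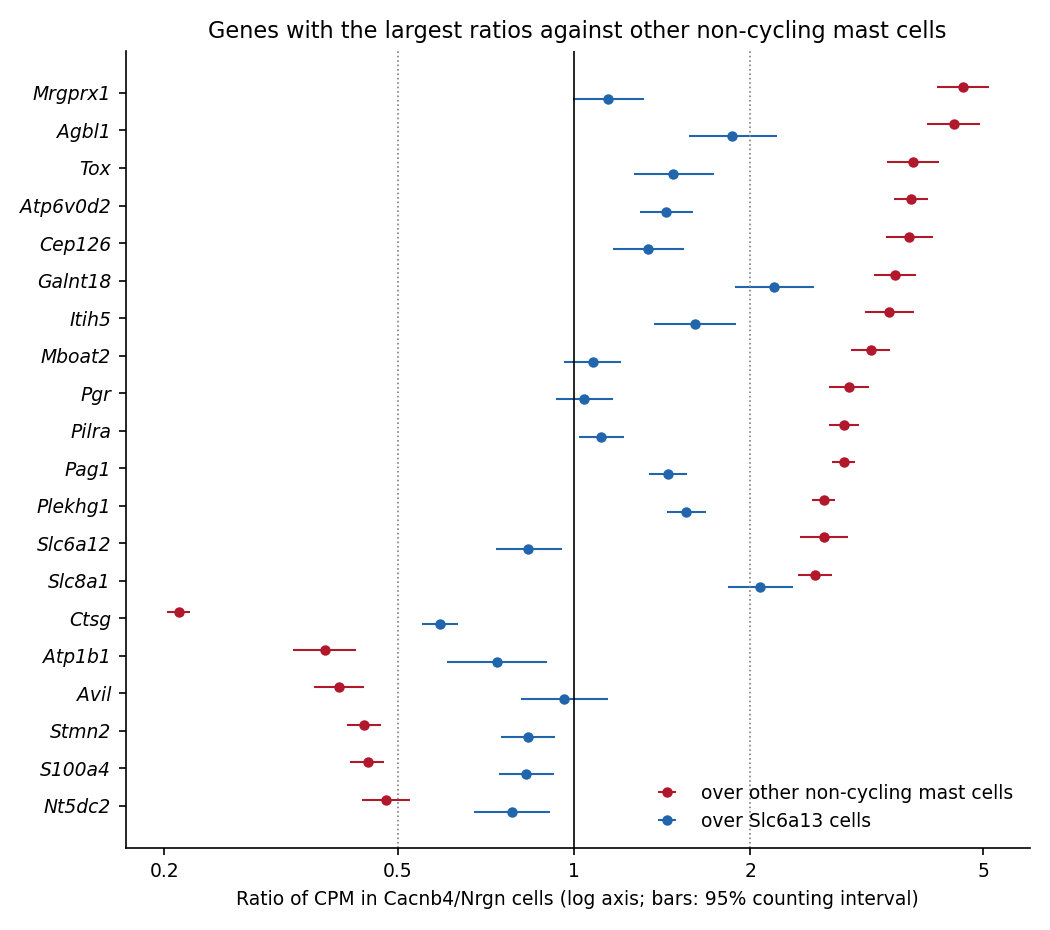
Ratio of CPM in Cacnb4/Nrgn cells over other non-cycling mast cells and over Slc6a13 cells (log x axis) for 14 of the 15 named genes with the largest and the 6 with the smallest ratios in the first comparison (y axis), with 95% intervals that cover counting error only. Solid and dotted lines mark ratios of 1, 2 and 0.5, and the ratios over Slc6a13 cells lie nearer to 1 for all 20 genes plotted, with Galnt18 at 2.20 and Slc8a1 at 2.08 the ones past 2 (1.83 and 1.78 with thinned counts).

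Slc6a13 cells were far closer. Only 5 of 5697 genes were at least 2-fold higher in Cacnb4/Nrgn cells (0.0878%) and 3 at least 2-fold lower (0.0527%). The 53 genes higher than in the other non-cycling mast cells had a median ratio of 1.43 over Slc6a13 cells (1.04 over all genes tested). Of the 53, 31 were above 100 kb, and over Slc6a13 cells long genes had high ratios in general. The median was 1.21 for all tested genes of 100 to 200 kb and 1.32 for those above 200 kb. Slc6a13 cells belong to those others, so the 2 comparisons are not independent. Galnt18 had 30.3 against 13.8 CPM, a ratio of 2.20 (1.89 to 2.57), and Slc8a1 41.1 against 19.8 CPM, a ratio of 2.08 (1.83 to 2.37). With thinned counts the ratios were 1.83 and 1.78, under 2. Both values were spread over many cells: the 5 cells with most UMIs held 7.29% of Galnt18 and 5.60% of Slc8a1 UMIs. Hba-a1 and Hbb-bs, haemoglobin chains, had ratios of 8.99 and 6.43, but a single Cacnb4/Nrgn cell held 655 of 756 and 1765 of 2035 UMIs. Gm4847, which the naming rule leaves out and which was named after its value was seen, was the other one. Pcdh9 had a ratio of 0.425, and a single Slc6a13 cell held 619 of its 862 UMIs there. With thinned counts the ratio of Pcdh9 was 0.914. Saa3 (0.491) had 244 of 680 UMIs in 1 Slc6a13 cell. Calca, which codes for calcitonin and CGRP, had 34.2 against 71.8 CPM, a ratio of 0.477 (0.438 to 0.519), with 22.3% and 23.8% of cells detected. In the Slc6a13 cells 5 cells held 332 of its 1057 UMIs (31.4%), and with thinned counts its ratio was 0.516. At 1.5-fold, 79 genes were higher (1.39%) and 7 lower (0.123%).

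Slc6a4 and Ctse cells differed more. Of 5777 genes, 73 were at least 2-fold higher in Cacnb4/Nrgn cells (1.26%) and 17 at least 2-fold lower (0.294%), and at 1.5-fold 209 were higher (3.62%) and 72 lower (1.25%). Cep126 (ratio 7.24), Mrgprx1 (7.04), Tox (6.48), Agbl1 (6.13) and Pgr (6.04) had the largest ratios, and Ctsg (0.218), Atp1b1 (0.325) and Avil (0.340) the smallest.

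Lists of genes that fit the cells are given by their counts past 2-fold over other non-cycling mast cells, which are to be read beside 0.92% higher and 0.104% lower of all genes tested. At these shares a list of this size holds 0 or 1 such gene, so the counts set no list apart. Of 14 genes of the IgE receptor and its signalling, 0 were past 2-fold in either direction, with a median ratio of 1.07 beside 1.05 for all genes tested. The adaptor Gab2 had the largest ratio, 1.497 (647 against 432 CPM). Store-operated calcium entry had 0 of 12 past 2-fold and a median of 1.17, led by the calcium release channel Itpr1 (1.35), while the calcium sensor Stim1 stood at 1.20 and the channel Orai1 at 0.977. The calmodulin list outside Nrgn had 0 of 11 and a median of 1.19, with the kinase Camk2g at 1.28. Among voltage-gated calcium channel subunits other than Cacnb4, 1 of 20 reached 20 CPM, Cacng8 at 28.4 CPM with a ratio of 0.831. Cacna1a had 4.66 CPM and Cacna1c 2.55 CPM in the Cacnb4/Nrgn cells, and these pore-forming subunits were therefore not among the genes tested.

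Effector genes were counted the same way. Of 8 granule proteases outside the rule, 1 was lower (Ctsg) and 0 higher, with a median of 0.910: Mcpt4 had 9647 against 10577 CPM (0.912) and Tpsb2 6967 against 7033 (0.991). Serglycin and heparin synthesis had 0 of 12 (median 1.19), with Ext1, which lengthens heparan chains, at 1.61. Amine synthesis and transport had 0 of 8 (median 1.04), with Slc18a2, the vesicular monoamine transporter, at 716 against 457 CPM (1.57). Prostaglandin and leukotriene synthesis had 0 of 10 (median 1.19), with thromboxane synthase Tbxas1 at 1.70 and leukotriene C4 synthase Ltc4s at 0.712. Cytokines and chemokines had 1 of 13 higher, the monocyte attractant Ccl7, at 991 CPM against 481 (2.06, 2.03 to 2.09) but 1024 CPM in Slc6a13 cells and 1260 in macrophage barcodes. Among inhibitory and adhesion receptors 1 of 16 was higher (Pilra) and 4 of 16 at 1.5-fold, beside 4.36% of all genes, with a median of 1.27, and Cd200r3 had 786 against 518 CPM (1.52). Growth factor and cytokine receptors had 0 of 12 (median 1.12), with Il1rl1, the IL-33 receptor, at 1.33. Lineage transcription factors had 0 of 19 (median 1.13), with Egr3 at 242 against 132 CPM (1.83). Of 2 tested ADAMTS and ADAMTS-like genes, Adamtsl3 was past 2-fold and Adamts5 had a ratio of 1.11. Of 3 tested neuronal genes outside Nrgn, 0 were higher and Stmn2 was lower. Proliferation genes outside the rule (0 of 8, median 0.947), the secretory machinery (0 of 13, 1.07), other cathepsins (0 of 7, 1.097) and immediate early and stress genes (0 of 12, 0.974) had none past 2-fold. Of 6 tested basophil genes, 0 were past 2-fold and 3 were 1.5-fold or more higher, all 6 had a ratio above 1 and the median was 1.42 (1.07 over Slc6a13 cells). The 3 were the protease Prss34 (64.7 against 41.6 CPM, 1.55), Cd200r3 and Il6 (110 against 73.0 CPM, 1.502). Prss34 had a ratio of 2.10 over Slc6a4 and Ctse cells and 0.762 over Slc6a13 cells. The basophil protease Mcpt8 was not among the genes tested, at 5.21 against 9.25 CPM.

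Gene length went with the ratios. The median ratio over other non-cycling mast cells was 0.892 for 644 genes of up to 5 kb, 1.06 for 1600 genes of 20 to 50 kb and 1.33 for 348 genes above 200 kb. Over Slc6a13 cells it went from 0.903 to 1.32, and over Slc6a4 and Ctse cells from 0.937 to 1.16. Genes above 100 kb held 12.7% of UMIs in Cacnb4/Nrgn cells, 10.0% in Slc6a13 cells and 9.78% in other non-cycling mast cells. Among the 53 genes at least 2-fold higher, 31 (58.5%) were above 100 kb, against 16.2% of the genes tested, and their median length was 165 kb against 29.2 kb. Cacnb4, at 249 kb, and Adamtsl3, at 279 kb, are long themselves, while Nrgn spans 8.41 kb. In thinned cells the share of UMIs in genes above 100 kb went from 9.63% at a difference of -3 or less to 15.6% at 5 or more. With each ratio divided by the median of its length class, 25 genes were at least 2-fold higher over the others and the Adamtsl3 ratio over Slc6a13 cells was 1.47. Whether reads in introns were counted is not given in the sources used here, and its part in these ratios was not tested.

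**Figure D4:**
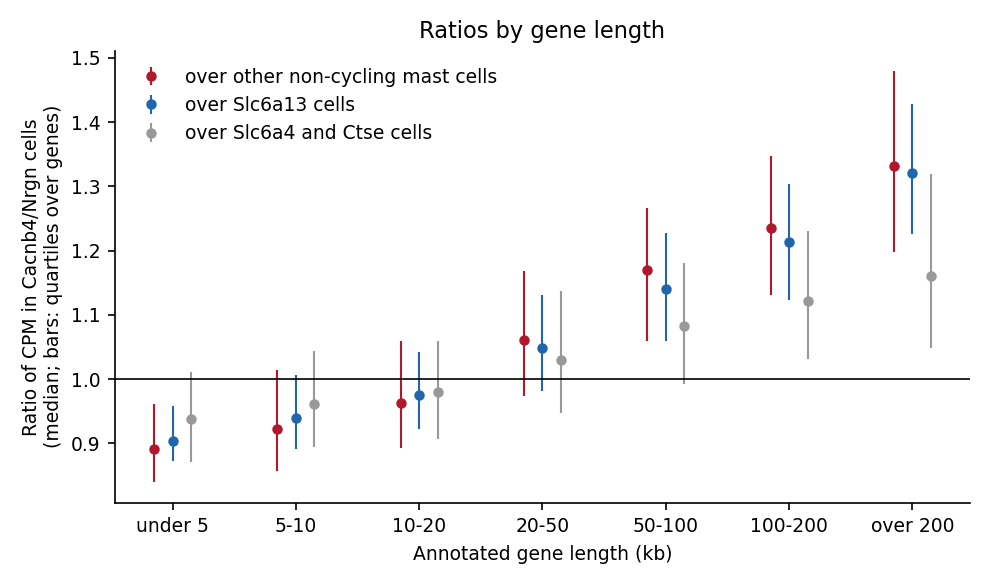
Median ratio of CPM in Cacnb4/Nrgn cells over 3 groups of mast cells (y axis; bars are quartiles over genes, not errors) by annotated gene length in kb (x axis, 7 classes). All 3 series lie below 1 in the shortest class and above 1 in the longest, at 1.33, 1.32 and 1.16.

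Cells with Xist transcripts were more frequent among the Cacnb4/Nrgn cells. Cells with at least 3 Xist UMIs and no Y-linked UMI made up 75.2% of them (73.5 to 76.8), 61.4% of Slc6a13 cells, 51.7% at equal counts, 32.7% of Slc6a4 and Ctse cells and 35.3% of the remaining cells. Cells with a Y-linked UMI and under 3 Xist UMIs made up 3.70%, 7.32%, 12.3%, 27.8% and 19.3%. The groups chosen for Mrgprb UMIs thus stood apart from the other groups, and the Cacnb4/Nrgn cells stood at the end of the order. Xist itself had 773 CPM against 384 CPM in the others (2.02), and 579 CPM in Slc6a13 cells. Of 7651 non-cycling mast cells of the Xist class, 25.5% (24.5 to 26.5) were Cacnb4/Nrgn cells, and of 2869 of the Y-linked class 3.35% (2.72 to 4.07). All Mrgprb cells together made up 45.0% and 12.4% of these classes, and of the Mrgprb cells 56.6% and 27.0% were Cacnb4/Nrgn cells. What the classes stand for cannot be told from the labels.

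Within the Xist class, 15 of the 21 named genes stayed past 2-fold, and most ratios were smaller. The comparison group differed too: the other cells of that class had 184 CPM of Mrgprb1, against 122 CPM in the others over all cells. There, 21 of 5741 genes were at least 2-fold higher over other non-cycling mast cells and 4 lower, against 53 and 6 over all cells, and 5 of 5713 were higher over Slc6a13 cells. Adamtsl3 had 72.7 CPM against 38.3 in the other cells of that class, a ratio of 1.90 (1.78 to 2.02), and 1.91 times the level of Slc6a13 cells (1.70 to 2.15). Mrgprx1 stood at 3.30, Agbl1 at 3.12, Galnt18 at 2.67 and Slc8a1 at 2.41, and Ctsg at 0.317. Pgr, Mboat2 and Slc6a12 had ratios of 1.82, 1.96 and 1.88 there. The Y-linked class held 96 Cacnb4/Nrgn cells and few UMIs. In it the Adamtsl3 ratio over the others was 1.27 (0.809 to 1.92, 24 UMIs), Galnt18 had 4.91 (3.36 to 6.998, 37 UMIs), Slc8a1 had 1.14 (0.671 to 1.83, 18 UMIs), and Agbl1 and Tox had 3 and 1 UMIs.

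**Figure D5:**
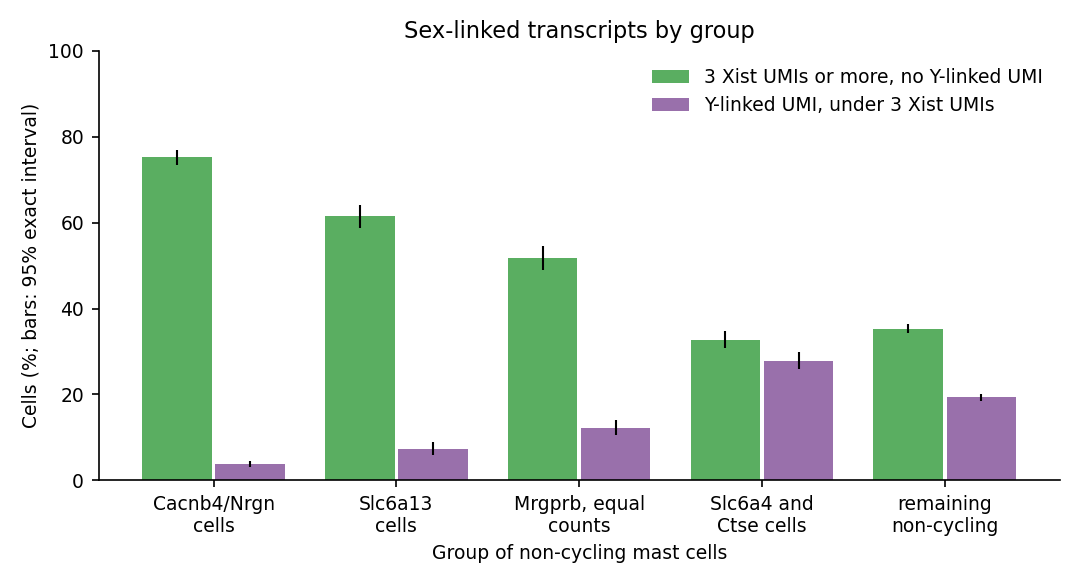
Share of cells in percent (y axis from 0) with at least 3 Xist UMIs and no Y-linked UMI, and with a Y-linked UMI and under 3 Xist UMIs, in 5 groups of non-cycling mast cells (x axis), with 95% exact intervals that cover counting error only. The first share is highest, at 75.2%, and the second lowest, at 3.70%, in Cacnb4/Nrgn cells.

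Nearness in expression was read from the 15 nearest neighbours of each thinned cell on 2000 variable genes and 30 components, without the genes of the rule and without sex-linked, mitochondrial and ribosomal protein genes. Of the neighbours of Cacnb4/Nrgn cells, 42% were Cacnb4/Nrgn cells, which are 15.7% of all cells so placed, 12% were Slc6a13 cells (7.54% of all) and 6.7% were Slc6a4 and Ctse cells (12.9% of all). The cells were thus found near each other without their defining genes, while most of their neighbours were other cells. This was not particular to them. Of the neighbours of Slc6a13 cells, 26% were Cacnb4/Nrgn cells and 16% were Slc6a13 cells. Mrgprb cells with equal counts had 22% Cacnb4/Nrgn cells and 12% of their own group (6.58% of all). Slc6a4 and Ctse cells had 24% of their own group.

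Nrgn and Cacnb4 had different companions. Over 4709 thinned Mrgprb cells and 7614 genes, among the genes most correlated with Nrgn (Pearson's r of log UMIs) were Gm4847 (0.242), Gsn (0.228), Laptm5 (0.207), Fabp5 (0.163), Atp6v0d2 (0.154), Csf1 (0.151), Nabp1 (0.134), Gimap5 (0.128) and Hdc (0.123). Gsn codes for the actin-severing gelsolin and Laptm5 for a lysosomal membrane protein. Adamtsl3 ranked 74 (0.0781) and Cacnb4 107 (0.0686). Cacnb4 ranked highest with Inpp4b (0.334), Enah (0.317) and Pde4d (0.314), which span 785, 124 and 1504 kb, and Adamtsl3 with Inpp4b (0.172), Mctp1 (0.168) and Cacnb4 (0.165). The points share 1 library, 1 depth and sparse counts, so these correlations describe the cells and no more. Within the Cacnb4/Nrgn cells, those with both genes had 91.9 CPM of Atp6v0d2 and 53.0 of Galnt18, against 35.5 and 23.6 CPM in cells with Cacnb4 only, and 100 and 96.2 CPM in the 60 with Nrgn only.

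The matrix also held 3 tag features, named Cafum, Matrigel and Macrophages. The labels list a second sample titled as a MULTI-seq barcode library, but what the tag names stand for is not given in the sources used here. A Cafum call needed 1.4 times its background UMIs and a Matrigel or Macrophages call 2 times, so the shares depend on these cuts. Of the Cacnb4/Nrgn cells, 1457 (56.1%) carried the Cafum tag alone and 1018 (39.2%) none that could be called, against 46.0% and 48.1% of the other non-cycling mast cells. Cacnb4/Nrgn cells were 17.7% (16.9 to 18.6) of non-cycling mast cells with the Cafum tag alone, 12.6% (11.9 to 13.3) of those with none, and 20 of 212 and 22 of 192 of those with the Matrigel or the Macrophages tag alone. The tag of most cells whose tag was called was thus the same in both groups.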

How the data were processed

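The authors deposited raw, unnormalized UMI counts of genes by barcodes. Per the file headers, Cell Ranger 7.0.0 produced them. The submitters' processing notes also list STAR, R 4.1.3, Seurat 4.1.1 and the build mm10. The matrix held 32285 genes, of which 32158 (99.6%) matched GENCODE M21, and 3 tag features with 21.9% of all UMIs, which were kept out of gene totals. No other library was used here. The cells and gene lists were chosen with earlier results of these data known.

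Counts were summed over the cells of a group and given as CPM with exact Poisson intervals, ratios with exact conditional binomial intervals and shares with Clopper-Pearson intervals, all at 95% (numpy 2.4.6, scipy 1.17.1). A gene was past the fold at a ratio of 2 or more, or its inverse, with 20 CPM or more in the higher group. Genes of the rule were left out. Named genes were the 15 with the largest and the 15 with the smallest ratios past the fold in each comparison, without mitochondrial, ribosomal protein and unnamed genes, and the examples of each list were its most abundant member and those with the largest ratios. Of the genes so chosen, 2 are not reported here. The comparison with Slc6a4 and Ctse cells, the split of UMIs, the sex-linked classes and gene length were added after the data were seen, as were the members of lists named besides these examples. Thinning to 5500 UMIs left out 120 Cacnb4/Nrgn cells and 1358 other non-cycling mast cells. Doublets were called with Scrublet (scanpy 1.11.5) at a threshold of 0.564, which marked 3245 barcodes (9.32%), and were kept, since the rule does not remove them. The expected rate was set to 27.9%, and 37.1% of simulated doublets lay above the threshold. The shares of called doublets can therefore leave out many doublets. The ratio code was tested on simulated counts.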

Additional observations from a re-analysis of the deposited data

How the results depend on the processing

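The share of Cacnb4/Nrgn cells among non-cycling mast cells was 8.50% with the rule applied to thinned counts. There, cells called cycling on all UMIs can pass as non-cycling. The share was 12.0% with at least 5 Mrgprb UMIs and 8.21% with a margin of 3 UMIs. With none of the cycling genes it was 15.6%, and with the Cafum tag alone 17.7%. Alternatives chosen after seeing the data gave 25.5% in the Xist class, 3.35% in the Y-linked class, 1.56% with Nrgn alone as the marker and 14.3% with Cacnb4 alone. Over other non-cycling mast cells, the 53 higher genes became 100 at 5 CPM or more, 24 at 50 CPM or more, 251 at 1.5-fold, 9 at 3-fold, 21 in the Xist class, 33 in the Y-linked class, 104 with Nrgn alone and 25 after centring by gene length. The 6 lower genes became 13 with the thinned rule, 12 with a margin of 3, 14 at 5 CPM, 3 at 50 CPM, 37 at 1.5-fold, 1 at 3-fold, 13 in the Y-linked class and 25 with Nrgn alone. Over Slc6a13 cells, the 5 higher genes became 12 with a margin of 3, 9 with none of the cycling genes, 12 at 5 CPM, 2 at 50 CPM, 79 at 1.5-fold, 2 at 3-fold, 128 in the Y-linked class (96 cells in each group), 39 with Nrgn alone, 1 with Cacnb4 alone and 3 after centring by length. The 3 lower genes became 1 with the thinned rule, 1 with the mean of each cell's CPM, 8 with a margin of 3, 0 with Cpa3 and Cma1 at 2.5% or more, 1 with the Cafum tag alone, 7 at 5 CPM, 7 at 1.5-fold, 0 at 3-fold, 20 in the Y-linked class, 7 with Nrgn alone and 5 with Cacnb4 alone. The Adamtsl3 ratio over Slc6a13 cells, 1.95, was 1.72 with the thinned rule, 2.40 with a margin of 3, 1.19 in the Y-linked class (24 UMIs), 1.73 with Nrgn alone and 1.47 after centring by length. Among 315 ratios of the 21 named genes under 15 alternatives, 313 kept their direction and 296 stayed past 2-fold. The exceptions were Agbl1 (0.684, 3 UMIs) and Tox (0.567, 1 UMI) in the Y-linked class. The cause of these shifts was not tested. No paired analysis was possible because there is 1 library.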
